A study of Mus musculus with 2 samples.

Results

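The transcription factor gene Trp53 and 9 genes that p53 controls directly, namely Mdm2, Ccng1, Bax, Bbc3, Gdf15, Sesn1, Sesn2, Phlda3 and Zmat3, were followed through the stroma of mouse pancreatic tumours. The genes were taken by symbol, and all 10 were found among the 31054 features of both count matrices. Each is given as CPM, its molecule counts per 1000000 in the summed counts of a cell population, in both sorted libraries and by the level of the tdTomato reporter.

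p53 is a stress-activated transcription factor that is controlled mainly at the level of its protein, so its own mRNA is a poor guide to its activity and its targets are read in its place. MDM2 is the ubiquitin ligase that degrades p53, and because p53 induces Mdm2 they form a negative feedback loop. The other targets act in cell death, in braking growth signals, in the response to oxidative and nutrient stress, in RNA processing and as a secreted signal. In senescent cells p53 acts beside p16, the product of Cdkn2a, and p21, the product of Cdkn1a, is its best-known target there.

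The Tom positive library holds tdTomato-positive and the Tom negative library tdTomato-negative stromal cells, separated by flow sorting from allografted pancreatic ductal adenocarcinoma of mice with the genotype p16-CreERT2/R26-LSL-tdTomato. In such mice a tamoxifen-dependent Cre, named for the p16 gene, switches on tdTomato at the Rosa26 locus for good, so the reporter marks past as well as present p16 expression. Both libraries share this genotype and were made with a 3′-end droplet kit, and there is 1 library of each kind. The number of animals, their age, the tamoxifen schedule and the genotype of the grafted carcinoma cells were not given in the sources used here. With 1 library a group there is no replicate check and no p-value is given. All 95% intervals are exact and cover counting error only.

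The filters left 4302 cells of the Tom positive and 6580 of the Tom negative library, with a median of 24191 and 20610.5 molecules (UMIs) per cell. The 28 clusters were named from fixed markers. The main populations were fibroblast-like (1551 and 2517 cells), macrophage-like (480 and 555), neutrophil-like (289 and 541), endothelial-like (509 and 237), lymphatic endothelial-like (147 and 33), pericyte or smooth muscle-like (47 and 159) and epithelial or carcinoma-like (29 and 42), each with the Tom positive count first. Clusters 0, 5 and 7 were myeloid by their leading genes and stayed unnamed: Ccl17, Plet1 and MHC class II genes led cluster 0, Mmp12, Nos2 and Chil3 led cluster 5, and Chil3, Ppbp and Ccl24 led cluster 7. Cluster 23, led by Acp5, Slc9b2 and Mt3 with macrophage as its best-matching class, held 48 and 59 cells at a median of 1846.5 and 3526 UMIs and is not among the 10 populations plotted. The libraries shared 3660 barcodes. A kept barcode was doubted where the other library held it with over 5 times the UMIs, or where both held it with under 5000 UMIs; 234 Tom positive and 1233 Tom negative cells were of this kind. They made up most of clusters 10, 19 and 20 and of the mesothelial-like and plasma-like classes, whose levels are not given below, and 118 of the 237 Tom negative endothelial-like cells.

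A p53-type promoter element stands in 3 members within 250 bases before a RefSeq transcript start, and these are shown because 2 of them, Ccng1 and Bax, stood higher in reporter-high fibroblasts. The element searched was the p53 consensus decamer on both strands (it is palindromic) in windows from 250 bases before to 50 after each start, alone or as 2 copies with a spacer of 0 to 13 bases and at most 2 mismatches in all. Cdkn1a is added for comparison. Capitals mark the 2 decamers of the pair with the shortest spacer in each gene, coordinates are GRCm38.p6 and the sequences are from RefSeq.
Ccng1, chr11:40755432-40755511, minus strand: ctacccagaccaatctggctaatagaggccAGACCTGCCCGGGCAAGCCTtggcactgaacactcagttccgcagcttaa
Bax, chr7:45467049-45467129, minus strand: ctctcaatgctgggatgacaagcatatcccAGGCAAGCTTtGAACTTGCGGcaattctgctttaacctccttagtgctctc
Sesn1, chr10:41887223-41887305, plus strand: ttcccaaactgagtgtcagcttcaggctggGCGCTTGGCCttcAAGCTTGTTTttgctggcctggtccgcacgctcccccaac
Cdkn1a, chr17:29090898-29090977, plus strand: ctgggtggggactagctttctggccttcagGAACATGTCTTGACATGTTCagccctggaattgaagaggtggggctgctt
The Ccng1 and Cdkn1a elements have no spacer and 1 mismatch, beginning 195 and 51 bases before their starts. The Bax element has a spacer of 1 base and the Sesn1 element of 3, each with 2 mismatches. Sesn1 and Cdkn1a each have another window, around a different start, which held neither a decamer nor a pair. Windows were found for 9 members, Zmat3 having none in the table. Of these 13 windows 5 held a decamer (Bax, Ccng1, Mdm2, Sesn1 and Trp53) and 3 a pair, against 8.356% and 4.0851% of all 32851 windows. Mdm2 also stood higher in reporter-high fibroblasts but held a decamer without a pair, and Sesn1, with a pair, did not stand higher. Whether the elements bear on the levels was not tested. A match describes letters only, and the elements known in the introns of Mdm2 and other targets lie outside these windows.

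Across the 10 populations the pair with the least Trp53 mRNA (chr11:69580359-69591873 in mm10), neutrophil-like cells and cluster 5, had the most Mdm2 mRNA. In Tom positive cells Trp53 stood at 115.9 CPM in carcinoma-like, 98.15 CPM in lymphatic endothelial-like and 90.9 CPM in endothelial-like cells, against 49.0 CPM in fibroblast-like cells, 28.0 CPM (18.8 to 40.2) in neutrophil-like cells and 23.5 CPM (19.9 to 27.6) in cluster 5. The Tom negative library gave 94.8, 118.4, 99.3, 56.0, 19.1 and 25.3 CPM in the same order. In both libraries the interval of lymphatic endothelial-like cells overlapped those of carcinoma-like and endothelial-like cells, and the intervals of neutrophil-like cells and cluster 5 overlapped at the low end. The pseudogene Trp53-ps is not a row of the matrices, so its reads could not be told apart from those of Trp53.

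Mdm2 (chr10:117688875-117710758) was highest, among the 10 populations plotted, in the 5 myeloid ones. It reached 350.7 CPM (315.6 to 388.7) in Tom positive and 317.7 CPM (290.4 to 346.8) in Tom negative neutrophil-like cells, 265.6 and 299.8 CPM in cluster 5, 228.4 and 208.6 CPM in cluster 7, 182.0 and 185.8 CPM in cluster 0, and 180.8 and 202.6 CPM in macrophage-like cells. Lymphatic endothelial-like cells followed at 140.2 and 121.0 CPM. Endothelial-like cells had 72.8 and 76.1 CPM, fibroblast-like cells 60.3 and 61.8 CPM, and carcinoma-like cells 41.8 and 65.2 CPM. The 5 myeloid populations thus lay above the other 5 in each library, and lymphatic endothelial-like cells came next. Cluster 23 did not share the high level: its Mdm2 was 99.7 CPM (74.9 to 130.1) and 127.0 CPM (107.5 to 149.2), and its Trp53 81.25 and 144.1 CPM.

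Ccng1 (chr11:40748552-40755311) encodes cyclin G1, which recruits a phosphatase to MDM2 and takes part in the same feedback. Its level was flatter. Between 32.2 and 41.35 CPM were measured in fibroblast-like, macrophage-like cells and clusters 0, 5 and 7 of both libraries, whereas endothelial-like cells had 18.9 and 19.3 CPM and carcinoma-like cells 16.2 and 14.8 CPM. Tom positive neutrophil-like cells stood apart with 84.05 CPM (67.3 to 103.7), against 36.4 CPM (27.5 to 47.1) in Tom negative ones.

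**Figure D1:**
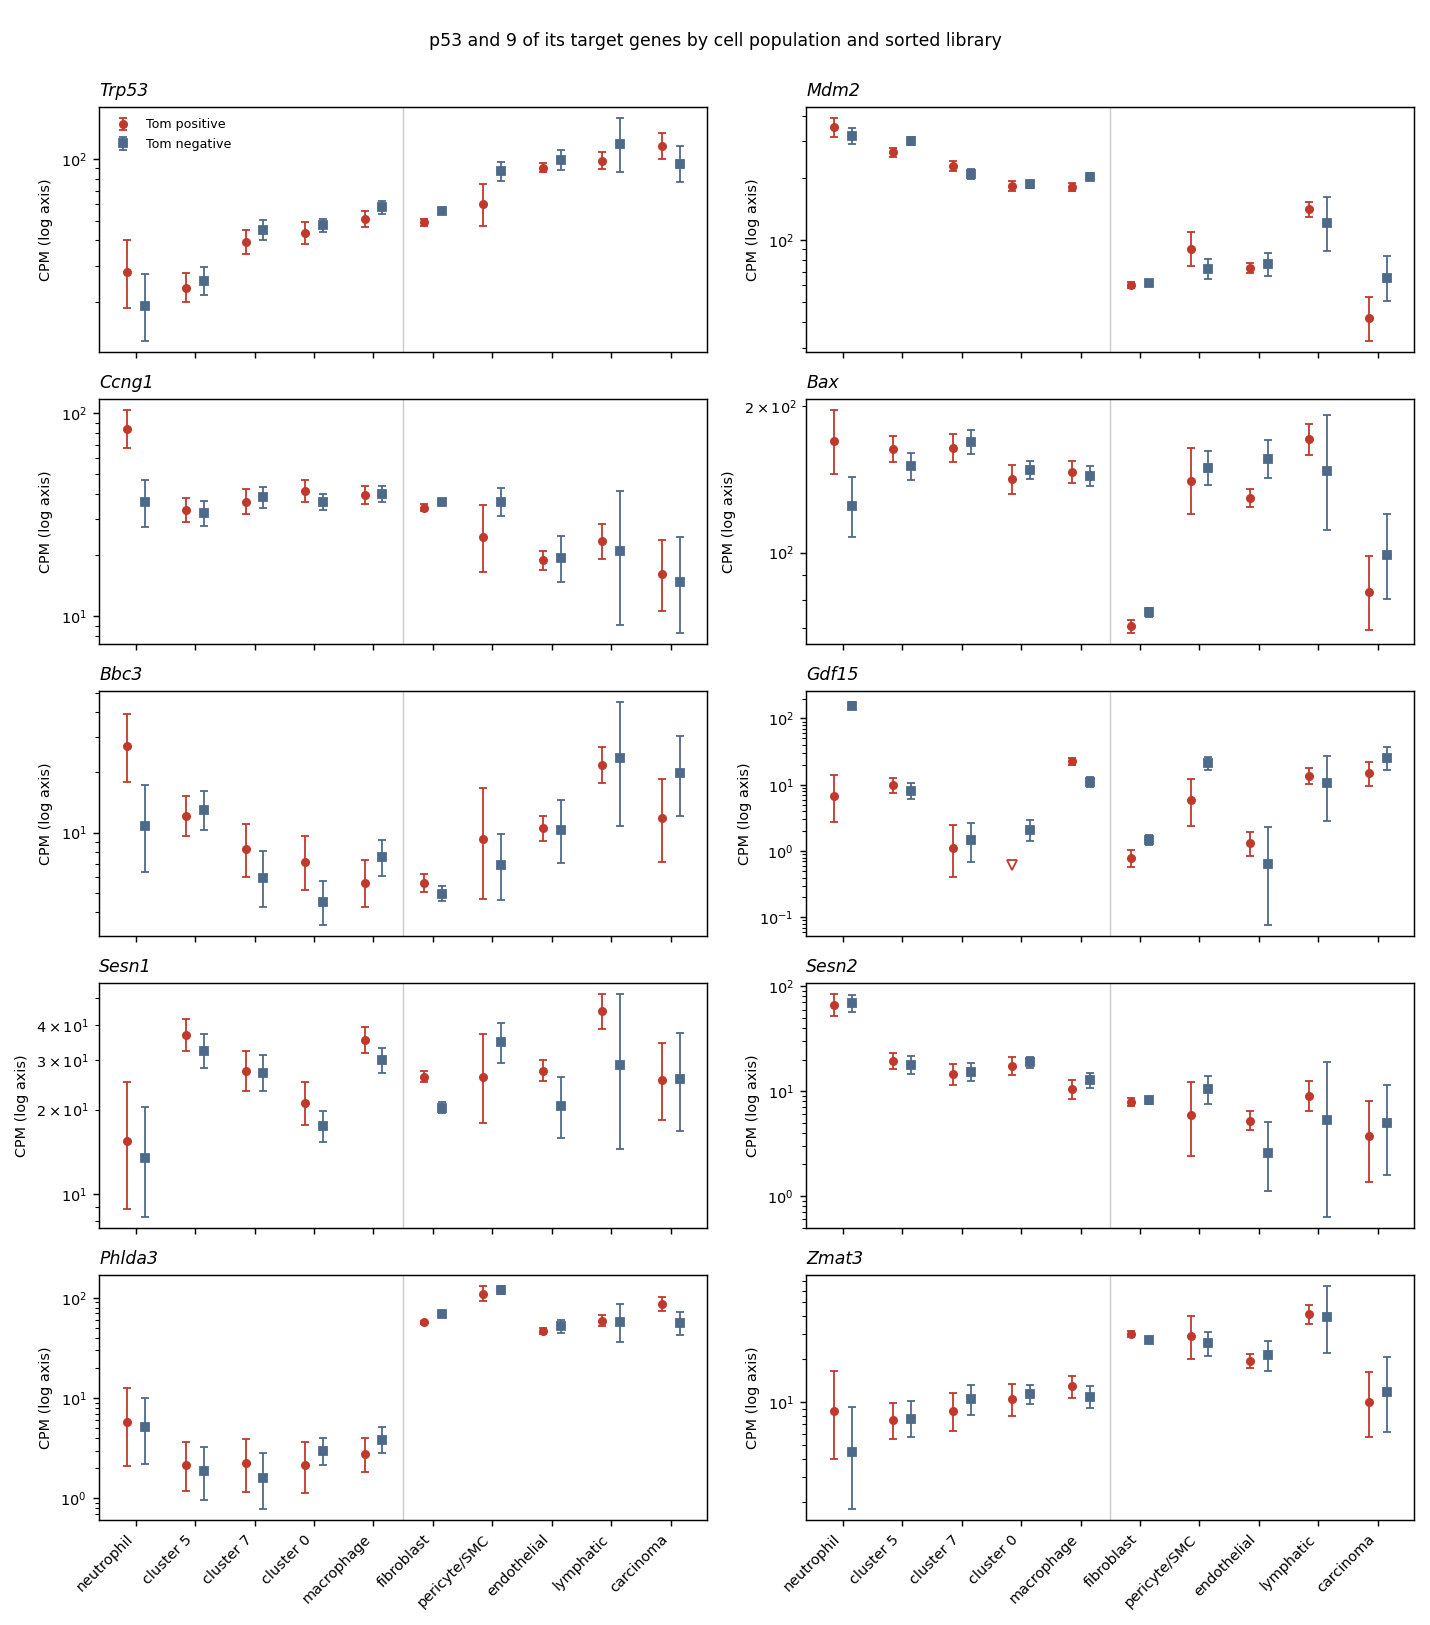
CPM of each of the 10 genes (log axis) in 10 cell populations, with Tom positive cells as red circles on the left of each pair and Tom negative cells as blue squares on the right; bars are exact 95% Poisson intervals and the open triangle is the upper limit of a count of 0. Myeloid populations stand left of the grey line: Mdm2 is higher there in both libraries, and Phlda3 is at 5.797 CPM or less in all of them.

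The death genes differed in where they were low. Bax (chr7:45461697-45466898) encodes the protein that opens the outer mitochondrial membrane, and it was lowest in fibroblast-like cells at 70.6 and 75.4 CPM and in carcinoma-like cells at 82.9 and 98.8 CPM. All other populations lay between 124.4 and 170.7 CPM, so the intervals of fibroblast-like cells met none of theirs. The row may include reads of Gm45808, which overlaps Bax on the same strand. Bbc3 (chr7:16308393-16318205) encodes PUMA, which frees BAX to act, and was low: 27.05 and 10.8 CPM in neutrophil-like cells, 21.9 and 23.7 CPM in lymphatic endothelial-like cells, 12.15 and 12.98 CPM in cluster 5, 10.6 and 10.3 CPM in endothelial-like cells and 5.61 and 4.96 CPM in fibroblast-like cells.

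Phlda3 and Zmat3 were low in myeloid cells. PHLDA3 is a lipid-binding repressor of AKT, and Phlda3 (chr1:135766119-135769136) stood at 110.1 and 120.5 CPM in pericyte or smooth muscle-like cells, 56.8 and 69.7 CPM in fibroblast-like cells and 46.9 and 52.0 CPM in endothelial-like cells. In the 5 myeloid populations it was 1.59 to 5.797 CPM, which is 2.28% to 10.2% of the fibroblast level in the same library, while the median of 8 fibroblast markers in those populations was 1.73% to 7.18% of theirs. Population by population, Phlda3 lay above the marker median in 8 of 10 sums and below it in 2, with 4.86% against 1.80% in Tom positive macrophage-like cells. The part of free RNA in these low values was not tested. Zmat3 (chr3:32334792-32366014), which encodes a zinc finger protein that binds RNA, had 41.2 and 39.5 CPM in lymphatic endothelial-like cells and 30.0 and 27.2 CPM in fibroblast-like cells. It had 4.465 to 12.9 CPM in the myeloid populations, at 16.4% to 42.9% of the fibroblast level and above the marker median in each. Carcinoma-like cells were as low in Zmat3, at 9.97 CPM (5.7 to 16.2) and 11.85 CPM (6.125 to 20.7).

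The sestrins restrain mTORC1 when amino acids are short or oxidants rise. Sesn2 (chr4:132492032-132510501) was at 66.7 CPM (51.9 to 84.4) in Tom positive and 68.9 CPM (56.5 to 83.2) in Tom negative neutrophil-like cells, and none of the other 9 populations exceeded 19.5 CPM. Sesn1 (chr10:41809935-41908424) had its lowest values there, 15.5 CPM (8.84 to 25.1) and 13.4 CPM (8.29 to 20.5). Cluster 0 was next at 21.2 CPM (17.7 to 25.2) and 17.4 CPM (15.4 to 19.7), and its intervals overlapped those of neutrophil-like cells. Sesn1 was at 26.3 and 20.3 CPM in fibroblast-like, 35.5 and 30.0 CPM in macrophage-like and 44.9 and 28.95 CPM in lymphatic endothelial-like cells. The neutrophil-like values rest on 69 and 108 counts of Sesn2 and on 16 and 21 of Sesn1. Gm12981 overlaps Sesn2 and 9930024M15Rik overlaps Sesn1, both on the same strand, so their reads could be shared.

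Gdf15 (chr8:70629393-70632456), a secreted stress cytokine, was the most uneven member. It was at 0.776 and 1.49 CPM in fibroblast-like cells, 1.33 and 0.642 CPM in endothelial-like cells 5.93 and 21.0 CPM in pericyte or smooth muscle-like cells and 14.96 and 25.7 CPM in carcinoma-like cells. It had no UMI in 253 Tom positive cells of cluster 0, where the exact interval reaches 0.610 CPM, and 2.10 CPM in the 688 Tom negative ones. The highest value, 156.3 CPM, was that of Tom negative neutrophil-like cells, described further below.

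Fibroblast-like clusters differed more among themselves than between the libraries for Phlda3 and Mdm2. Phlda3 was 88.8 CPM in Tom positive, against 119.4 CPM in Tom negative cells of cluster 1, led by Tnc, Bmpr1b and Lrrc15, against 26.7 and 26.6 CPM in cluster 2 and 30.1 and 27.8 CPM in cluster 9. Mdm2 ran from 41.5 and 34.0 CPM in cluster 6 to 88.2 and 83.2 CPM in cluster 1. Trp53 was highest in cluster 16 at 72.4 and 86.2 CPM.

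The genes whose log2 levels followed a member most closely were named over 24 sums (15 populations, up to 2 libraries each, sums that share library and depth within a library), among 7254 genes. Of these sums 7 come from the 5 classes made mostly of doubted barcodes, and each r is followed by its value over the other 17 sums, a setting chosen after seeing the data. Trp53 was most like Stoml2 (Pearson r = 0.964, then 0.96), Mcrs1 (0.928, then 0.941) and Smc1a (0.904, then 0.929). Mdm2 was most like Lrrfip2 (0.899, then 0.945), Uhrf1bp1l (0.876, then 0.943) and Larp4b (0.874, then 0.909), and Gdf15 most like Azi2 (0.762, then 0.758), Sfmbt2 (0.708, then 0.585) and Nktr (0.676, then 0.658). Among the members themselves Mdm2 and Phlda3 had r = -0.693, then -0.863, Trp53 and Sesn2 -0.575, then -0.838, Trp53 and Phlda3 0.603, then 0.666, and Mdm2 and Bax 0.582, then 0.577. Mdm2 moved from near 0 against Zmat3, at -0.088, to -0.797 over the 17 sums, and against Trp53 it had -0.305, then -0.71. These are descriptions of the sums and carry no test.

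The sort was compared first over all kept cells. A gene counted as higher or lower when the 2 CPM values differed at least 1.5-fold and the larger was at least 10 CPM. Over all kept cells 0 of the 8 members at that level passed, against 7.73% of 9370 genes, 6.1% higher and 1.62% lower. Trp53 had 56.5 CPM in Tom positive, against 56.35 CPM in Tom negative cells (ratio 1.003, 0.971 to 1.04), and Mdm2 had 103.6 and 106.6 CPM (ratio 0.972, 0.949 to 0.995). Among the 8 the widest gaps were Sesn1, at 28.5 and 22.3 CPM, and Phlda3, at 42.6 and 51.4 CPM. Of the 2 members under 10 CPM, Bbc3 had 7.95 and 5.94 CPM and Gdf15 3.93 and 4.97 CPM.

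In fibroblast-like cells 0 of 7 measured members passed, against 2.29% of 8682 genes, 0.841% higher and 1.45% lower. Sesn1 stood at 26.3 CPM in Tom positive, against 20.3 CPM in Tom negative cells, a ratio of 1.29 (1.21 to 1.38), and it was higher in Tom positive cells in 7 of 7 fibroblast-like clusters, with the interval of the ratio above 1 in 4. Phlda3 had a ratio of 0.815 (0.783 to 0.849) and Trp53 of 0.875 (0.837 to 0.915), lower in the Tom positive cells of 4 and 6 of the 7 clusters, with the interval below 1 in 4 clusters for both. Mdm2 had a ratio of 0.975 (0.936 to 1.02). The gaps of Sesn1, Phlda3 and Trp53 exceed counting error, and that of Mdm2 does not. Bax was lower, at 70.6 CPM (68.5 to 72.7) in Tom positive, against 75.4 CPM (73.7 to 77.1) in Tom negative cells. Ccng1 was at 34.3 CPM (32.8 to 35.8) against 36.7 CPM (35.5 to 37.9), and these intervals overlapped. Zmat3 was higher, at 30.0 CPM (28.65 to 31.4) against 27.2 CPM (26.2 to 28.3). All are under 1.5-fold, and 1 library a group cannot show whether another pair of libraries would give them.

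No member passed in 4 further populations. In cluster 0 there were 0 of 7 measured, against 2.83% of all genes (1.21% higher and 1.62% lower). In cluster 5 there were 0 of 7, against 6.81% (3.11% higher and 3.7% lower), and in cluster 7 0 of 7, against 4.13% (2.18% higher and 1.95% lower). In endothelial-like cells there were 0 of 8, against 13.3% (4.97% higher and 8.34% lower). Trp53 had a ratio of 0.921, 0.928, 0.878 and 0.915 in these, and each of those intervals included 1. Median depth of endothelial-like cells was 30849 UMIs in Tom positive, against 2151 in Tom negative cells. Without the doubted barcodes Bax in endothelial-like cells was 129.4 CPM in Tom positive, against 152.0 CPM in Tom negative cells, against 129.4 and 155.8 CPM with them. Thinned to 2000 UMIs a cell, which left 482 and 123 cells, 3 members passed, all lower: Bax at 125.5 against 207.3 CPM, Trp53 at 81.95 against 146.3 CPM and Zmat3 at 14.5 against 36.6 CPM. The share of all genes that passed was not computed after thinning, and 13.3% is the share before it. The thinned Zmat3 levels rest on few counts.

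**Figure D2:**
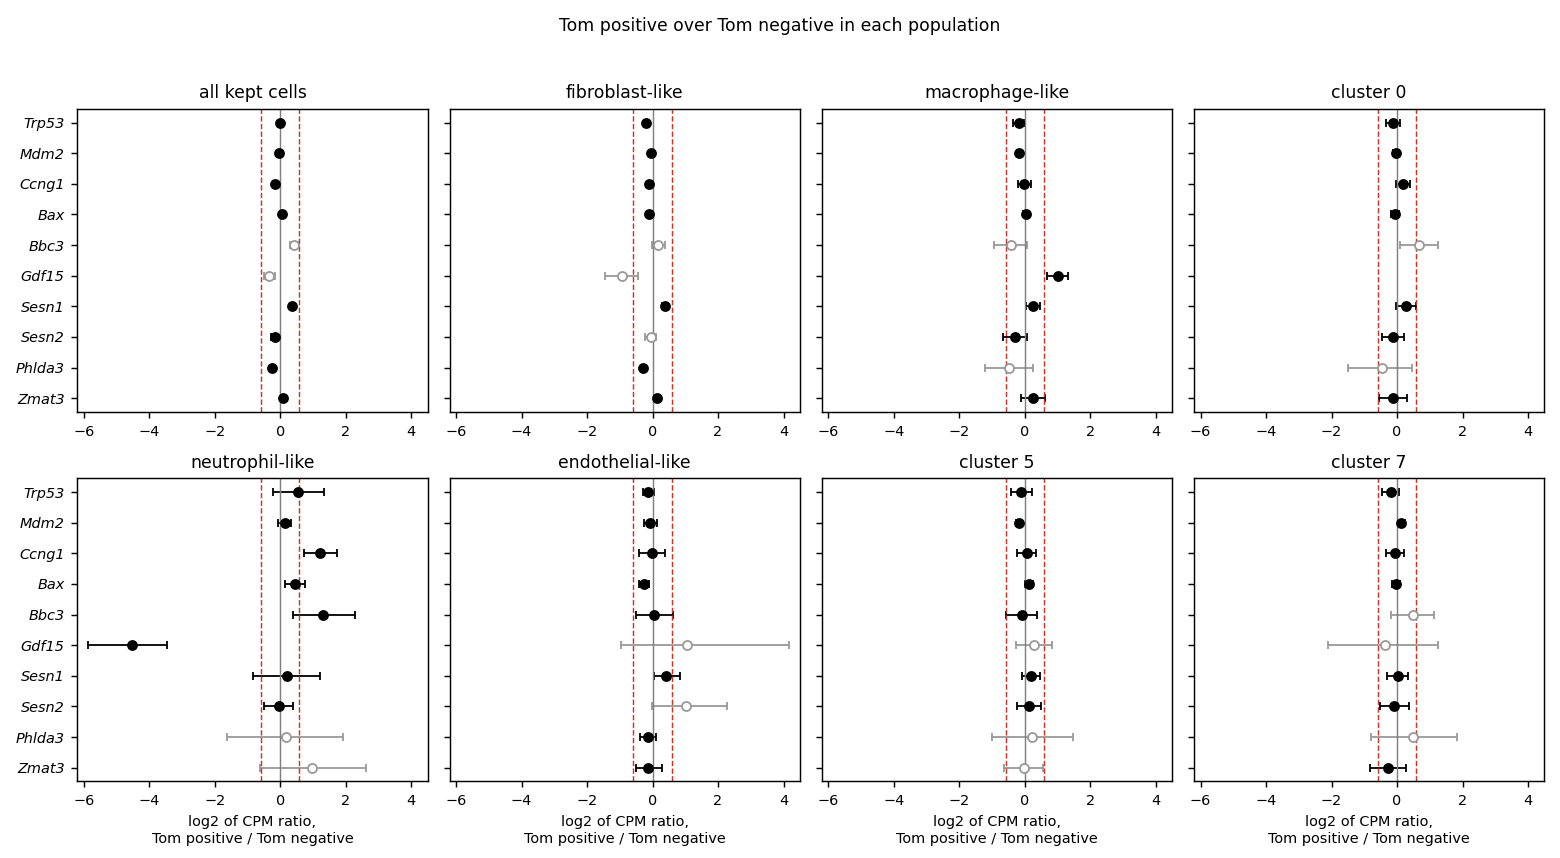
log2 of the CPM ratio, Tom positive over Tom negative, for each gene in 8 populations, with exact 95% intervals; filled points reach 10 CPM in a library, open grey points do not, and dashed lines mark 1.5-fold. Outside neutrophil-like cells the only filled point past a dashed line is Gdf15 in macrophage-like cells, with a ratio of 2.01; Gdf15 in cluster 0 has no Tom positive count and is not drawn.

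Neutrophil-like cells differed most, but so did their whole transcriptome. Of 8 measured members 3 passed, against 43.8% of 7816 genes (37.8% higher and 6.05% lower), and the median over all genes was 0.376 on the log2 scale towards the Tom positive library. Ccng1 was higher at 84.05 CPM in Tom positive against 36.4 CPM in Tom negative cells (ratio 2.31, 1.64 to 3.29). Bbc3 was higher at 27.05 CPM in Tom positive against 10.8 CPM in Tom negative cells (ratio 2.495, 1.32 to 4.86), on 28 and 17 counts. Gdf15 was 23.1-fold lower, at 6.76 against 156.3 CPM. The 7 neutrophil markers summed to 26450 CPM in Tom positive, against 38150 CPM in Tom negative cells, and the 9 macrophage markers to 506.3 and 889.8 CPM. Median depth was 3564 and 2745 UMIs. The part of these differences in the member values was not tested.

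Gdf15 was the only member past 1.5-fold in macrophage-like cells, where 1 of 8 measured members passed against 5.29% of 8375 genes (2.35% higher and 2.94% lower). The class divides over its clusters differently in each library: of the 480 Tom positive cells 387 were in cluster 4, 56 in cluster 18 and 37 in cluster 21, against 344, 116 and 95 of the 555 Tom negative ones. The cell cycle genes Top2a and Mki67 were among the leading genes of cluster 18. The 9 macrophage markers summed to 18990 CPM in Tom positive, against 12880 CPM in Tom negative cells, and the 6 cycling markers to 464.4 and 632.4 CPM. The part of this makeup in the values was not tested. Gdf15 stood at 22.5 CPM (19.6 to 25.7) in Tom positive and 11.2 CPM (9.40 to 13.2) in Tom negative cells. These counts sat in few cells. In Tom positive cells 45 of 480 macrophage-like cells held 220 UMIs, and in Tom negative cells 31 of 555 held 137 UMIs, of which 1 cell alone held 70. In neutrophil-like cells 3 of 289 Tom positive cells held 7 UMIs, and 17 of 541 Tom negative cells held 245, with 71, 63 and 55 in the top 3. Without the 3 highest cells of each library the macrophage-like levels were 14.5 and 3.86 CPM and the neutrophil-like levels 0 and 36.0 CPM, so both directions stayed while the sizes moved. This setting was chosen after seeing the data. With the macrophage-like clusters weighted equally the levels were 11.6 and 8.29 CPM, under 1.5-fold, and at a mitochondrial limit of 5% they were 27.55 and 7.01 CPM.

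The 17 Gdf15-bearing Tom negative neutrophil-like cells also had 34710 CPM of Ccl3, a chemokine, against 9192 CPM in the 524 without it, and 1308 against 283.7 CPM of Mdm2. Retnlg, a neutrophil marker, was at 0 against 1051 CPM, and S100a8 at 5500 against 15730 CPM. Of the macrophage genes looked at, C1qa was at 76.9 against 89.7 CPM, Csf1r at 19.2 against 50.1 CPM and Cd68 at 480.7 against 218.4 CPM. The 3 Tom positive cells with Gdf15 had 21040 CPM of S100a8, against 10380 CPM in the 286 without.

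**Figure D3:**
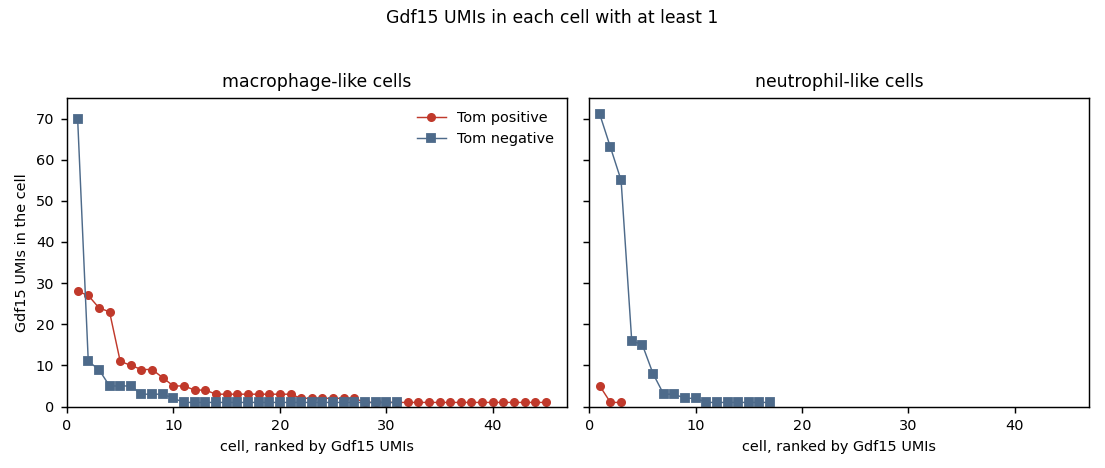
Gdf15 UMIs of each cell that had at least 1 (vertical axis), ranked within its library (horizontal axis), for macrophage-like cells on the left and neutrophil-like cells on the right; red circles are Tom positive and blue squares Tom negative cells. In Tom negative neutrophil-like cells 3 cells at 71, 63 and 55 UMIs hold 77.1% of the total.

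Within the Tom positive library the reporter level separated fibroblast-like cells by Mdm2, Ccng1 and Bax more than the sort did, though not by Sesn1, Trp53 or Phlda3. The 1551 cells were 453 with no tdTomato UMI, 816 below 500 CPM of tdTomato and 282 at or above it, called none, low and high. Mdm2 was 45.8 CPM (42.4 to 49.5) in none, 59.6 CPM (57.1 to 62.2) in low and 80.9 CPM (75.7 to 86.3) in high cells. Ccng1 was 25.7 CPM (23.1 to 28.5), 34.5 CPM (32.6 to 36.5) and 44.4 CPM (40.6 to 48.5) in the same order. For both genes none of the 3 intervals overlapped, though they leave out spread between cells. Of the Mdm2 counts 3 cells held 47 of 656 in none, 146 of 2165 in low and 135 of 905 in high cells. In that order 62.9%, 78.1% and 78.4% of cells had an Mdm2 UMI. For Ccng1 the shares were 48.3%, 64.2% and 64.5%. Both shares were thus level between low and high cells. With cells thinned to equal depth the Mdm2 shares were 8.47%, 9.31% and 15.4% and the Ccng1 shares 3.20%, 6.37% and 6.59%. Cells with none lay below Tom negative fibroblast-like cells, which had 61.8 CPM of Mdm2 and 36.7 CPM of Ccng1.

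Bax followed with 64.4, 70.25 and 79.5 CPM and Phlda3 with 48.75, 57.7 and 64.4 CPM in none, low and high cells. Tom negative fibroblast-like cells had 75.4 CPM of Bax and 69.7 CPM of Phlda3. Zmat3 had 24.7, 31.4 and 32.3 CPM, level between low and high. Trp53 had 46.2, 51.2 and 45.5 CPM and Sesn1 30.2, 25.5 and 23.8 CPM, so neither the p53 mRNA nor Sesn1 increased with the reporter. Bbc3 stayed between 5.34 and 6.08 CPM, Sesn2 between 5.87 and 8.59 CPM, and Gdf15 was under 1 CPM throughout.

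Cdkn1a (chr17:29090976-29100727), the p21 gene, showed the same order more steeply, with 22.8, 39.8 and 97.15 CPM. Median depth was 33604, 43244 and 39004 UMIs per cell in none, low and high cells, and mitochondrial reads were 3.54%, 3.41% and 2.99%. Cells with none thus had the lowest depth, and the mitochondrial share fell in the order of the reporter. The part of either in the values was not tested.

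**Figure D4:**
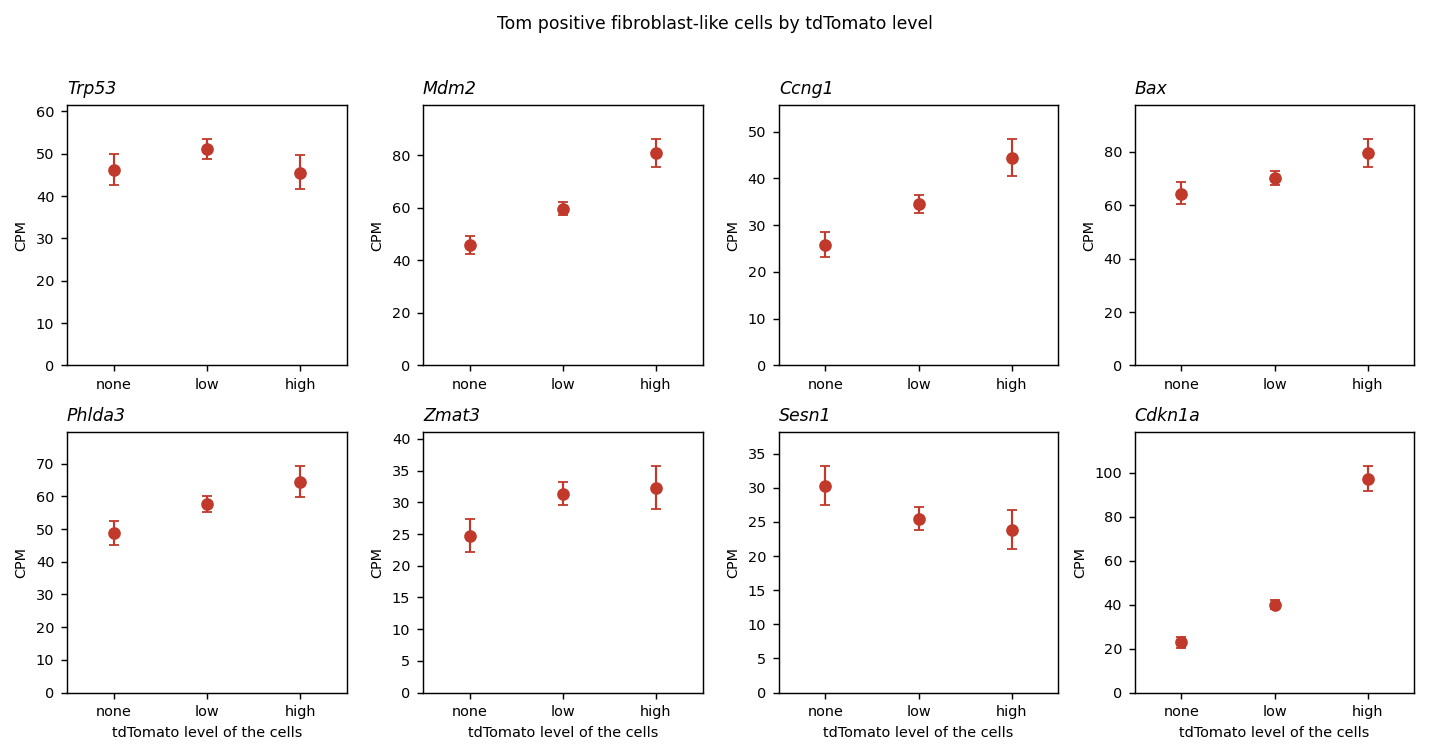
CPM (vertical axes from 0) of 7 members and Cdkn1a in Tom positive fibroblast-like cells with no, low or high tdTomato (horizontal axis); points are levels of summed counts and bars exact 95% Poisson intervals. Mdm2, Ccng1, Bax, Phlda3 and Cdkn1a are lowest in cells with none and highest in cells with high tdTomato, while Trp53 is not.

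Set against all other Tom positive fibroblast-like cells together, reporter-high cells had Mdm2 at 80.9 against 55.7 CPM (ratio 1.45, 1.35 to 1.57) and Ccng1 at 44.4 against 32.0 CPM (ratio 1.39, 1.25 to 1.53). Bax had a ratio of 1.16 (1.08 to 1.25) and Phlda3 of 1.17 (1.08 to 1.27). Phlda3 was higher under 12 of 13 alternatives and lower after thinning to 2000 UMIs, at -0.200 on the log2 scale. None of the 7 measured members reached 1.5-fold, against 6.19% of 8738 genes (3.38% higher and 2.82% lower). The median of the 7 was 0.211 on the log2 scale and that of all genes 0.013. Macrophage markers summed to 153.5 CPM in reporter-high and 136.5 CPM in reporter-low cells over 9 genes, monocyte markers to 1242 and 1050 CPM over 7, and neutrophil markers to 39.15 and 32.4 CPM over 7. Erythrocyte markers summed to 1.25 and 33.2 CPM over 6, and mesothelial markers to 13.4 and 5.81 CPM over 6. Their part in the result was not tested.

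Reporter-high cells were also placed differently: 32.6% of them lay in cluster 1 and 28.4% in cluster 2, against 9.05% and 9.27% of cells with no tdTomato. Cluster 1 had the highest Mdm2, Phlda3, Ccng1, Bax, Zmat3 and Cdkn1a of the fibroblast-like clusters in both libraries, and cluster 2 came next in Cdkn1a. At least 20 cells on each side were found in 5 clusters. Within them Mdm2 was higher in reporter-high cells in 4, from 1.29 to 1.385-fold, with the interval above 1 in 3 and a ratio of 0.80 (0.585 to 1.07) in cluster 8. Ccng1 was higher in 4, with the interval above 1 in 2, and lower in cluster 6 at 10.8 against 23.5 CPM. Bax was higher in 4, with the interval above 1 in 1, and in cluster 1 its ratio was 0.997 (0.878 to 1.129). Sesn1 went both ways, with ratios of 0.466 to 1.52 and the interval above 1 in 2 clusters and below 1 in 2. Cdkn1a had a ratio above 1 in all 5, with the interval above 1 in 4. Phlda3 was above 1 in 3 and its interval only in cluster 1, where it was 108.0 against 80.6 CPM.

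**Figure D5:**
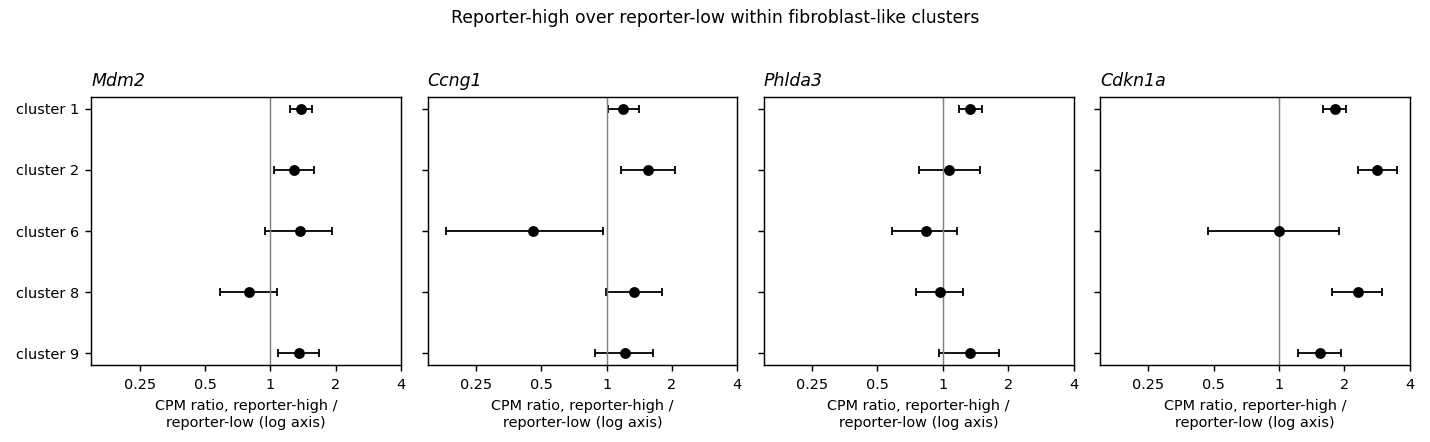
CPM ratio of reporter-high over reporter-low Tom positive cells (log axis) within each fibroblast-like cluster that had at least 20 of both, with exact 95% intervals. Mdm2 lies above 1 in 4 of 5 clusters and Cdkn1a in 5, whereas Phlda3 is clearly above 1 in cluster 1 alone.

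Macrophage-like cells showed no such order. Reporter-high cells (344) and the others (136) had 178.8 and 186.5 CPM of Mdm2 and 40.4 and 38.0 CPM of Ccng1, and 0 of 8 measured members passed 1.5-fold, against 4.73% of 8418 genes (2.82% higher and 1.91% lower). Trp53 had 54.4 and 41.6 CPM, a ratio of 1.31 (1.05 to 1.64). Endothelial-like cells had only 30 reporter-high cells, and there 1 of 8 passed, against 23.2% of 9268 genes (13.2% higher and 10% lower): Ccng1 at 31.8 against 18.4 CPM, on 20 counts in the reporter-high cells. In the same cells macrophage markers summed to 2624 against 194.0 CPM, with 9 of 9 past 1.5-fold higher, platelet markers to 319.3 against 39.3 CPM and endothelial markers to 6560 against 7237 CPM. Their part in the values was not tested. The Ccng1 value turned to lower in reporter-high cells when CPM was averaged over cells, when cells were thinned to 2000 UMIs and when the other cells were limited to those with no tdTomato UMI (20.5 against 21.7, 23.8 against 28.2 and 31.8 against 54.0 CPM). Only 21 reporter-high cells remained after thinning and 4.76% of them had a Ccng1 UMI, so that value rests on very few counts. The Mdm2 ratio was 1.45 in fibroblast-like, 0.959 (0.861 to 1.07) in macrophage-like and 0.868 (0.617 to 1.19) in endothelial-like cells, and the difference between these was not tested.

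Lymphatic endothelial-like cells of the Tom positive library, looked at after their values were seen, gave Mdm2 at 81.9 CPM (49.3 to 127.9) in 21 cells with no tdTomato UMI, 113.2 CPM (101.3 to 126.2) in 87 low and 217.9 CPM (192.0 to 246.2) in 39 high cells. Of the 257 Mdm2 counts in the high cells 133 came from 3 cells, and 1 cell held 64. Zmat3 was 17.2, 35.0 and 61.0 CPM in none, low and high, with 31 of its 72 counts in the high cells coming from 3 cells. Trp53 was 116.4, 103.2 and 82.2 CPM and Bax 181.1, 164.8 and 183.1 CPM, and the intervals of each overlapped. Mdm2 fell instead in neutrophil-like cells and cluster 5. Neutrophil-like cells had 602.3 CPM (507.9 to 709.1) in 68 none, 279.5 CPM in 36 low and 274.2 CPM (235.4 to 317.5) in 185 high cells. Cluster 5 had 376.2 CPM (338.7 to 416.7) in 43 low and 244.9 CPM (231.7 to 258.6) in 307 high cells. The top 3 cells held 66 of 144 counts in the none and 118 of 367 in the cluster 5 low cells. Clusters 0 and 7 were level, at 175.6 and 229.3 CPM in low, against 176.0 and 229.9 CPM in high cells. Not all genes fell with Mdm2 in neutrophil-like cells. In none, low and high cells Ccng1 was 16.7, 47.7 and 117.1 CPM, on 4, 7 and 76 counts. Bax was 87.8, 150.0 and 203.3 CPM and Cdkn1a 1058, 1213 and 1543 CPM in the same order. For these 3 genes the none and high intervals did not overlap. Sesn2 fell, at 133.8, 81.8 and 38.5 CPM.

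A further 30 p53 targets were counted the same way. In reporter-high fibroblast-like cells 3 of 22 measured were higher and 0 lower, against 3.38% of all genes higher: Cdkn1a at 97.15 against 35.0 CPM (2.775-fold), Pmaip1, which encodes the death protein NOXA, at 11.9 against 6.83 CPM (1.74-fold), and Gadd45a, a DNA damage response gene, at 42.4 against 27.3 CPM (1.55-fold). Of the 22, 19 had a difference above 0 and their median was 0.137. By the sort, Pmaip1 was the only target past 1.5-fold in fibroblast-like cells, at 7.75 CPM in Tom positive against 12 CPM in Tom negative cells, so 1 of 21 measured was lower, against 1.45% of all genes. Cdkn1a stood at 46.25 against 59.7 CPM in the same comparison (ratio 0.774, 0.740 to 0.810). Over all kept cells 2 of 24 were higher, against 6.1% of all genes. Tnfrsf10b, a death receptor gene, was higher at 11.97 CPM in Tom positive against 5.19 CPM in Tom negative cells, and so was Plk2, a stress kinase gene, at 76.6 against 42.1 CPM. In endothelial-like cells 2 of 23 were higher by the sort, against 4.97% of all genes, the death receptor genes Eda2r, at 13.3 against 6.10 CPM, and Fas, at 21.3 against 11.9 CPM. By reporter level in those cells 3 of 24 were higher and 3 lower, against 13.2% and 10% of all genes, and Eda2r, at 4.765 against 13.6 CPM, and Fas, at 14.3 against 21.6 CPM, were among the lower ones. In reporter-high macrophage-like cells 1 of 20 was higher, Pmaip1 at 32.45 against 21.4 CPM, beside 2.82% of all genes higher. In neutrophil-like cells of the sort 9 of 21 were higher, against 37.8% of all genes.

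Of the 14 measured regulators of p53, 1 was higher and 0 lower in reporter-high fibroblast-like cells: Hipk2, a kinase that phosphorylates it, at 74.7 against 49.2 CPM (1.52-fold). Beside this count and the next 2 stand 3.38% of all genes higher and 2.82% lower. Mdm4, the partner of MDM2, was 84.05 CPM in Tom positive, against 33.8 CPM in Tom negative neutrophil-like cells, where 9 of 14 regulators were higher and 37.8% of all genes were. Some targets also answer other stresses, so ATF4 targets were counted beside them: in reporter-high fibroblast-like cells 2 of 14 were higher, Vegfa at 201.4 against 86.25 CPM and Slc7a11 at 21.7 against 11.2 CPM. Of 16 genes that tissue dissociation induces, 1 was higher there, Ier3 at 556.7 against 363.1 CPM, and 1 lower, Hspa1b at 32.6 against 49.7 CPM. Of the 14 ATF4 targets 11 had a difference above 0, with a median of 0.171 on the log2 scale. Of the 16 dissociation genes 13 did, with a median of 0.175, beside 0.013 over all genes. These medians lay between those of the other p53 targets, 0.137, and of the members, 0.211. The part of either response in the member values was not tested.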

How the data were processed

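The deposited files are gene by barcode matrices of raw UMI counts for 2 libraries of sorted cells, 1 per group. Per the file headers and the submitters' processing notes they came from Cell Ranger 7.0.1, and the notes name mm10; the labels' protocols name the 10x Genomics 3′ kit version 3.1. Library totals were 128275546 UMIs in 7568 Tom positive and 164646314 in 13604 Tom negative barcodes. Cells needed 500 genes, 1000 UMIs and a mitochondrial share of 10% or lower, and doublets called by Scrublet in scanpy 1.11.5 (63 and 97) were removed. Cells were clustered with Leiden (2000 variable genes, 30 components, 15 neighbours, resolution 1). A cluster was named "X-like" where at least 3 of the fixed markers of X reached 50 CPM, their mean stood at least 1 above the median cluster on the log2 scale, and no other class had more markers among its 10 leading genes; classes rebuilt this way may differ from the study's own. UMI counts were summed per class and library and given as CPM with exact Poisson intervals, and ratios with exact conditional intervals. Log2 differences used CPM plus 1. A call was 1.5-fold with at least 10 CPM in either arm, over all genes; no test was possible with 1 library a group. Reporter-high meant at least 500 CPM of tdTomato.

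On simulated data with 200 genes changed 2-fold, the calls recovered 99.5% of them in the fibroblast-like comparison (8533 genes, 0 unchanged genes called) and 99.0% in the macrophage-like one (8140 genes, 1 called). The simulated sums held Poisson error alone, with no spread between cells or libraries, and the true fold lay above the 1.5-fold cut. They check the calculation and cannot show how reliable the calls are in the real data. TMM factors were from edgeR 4.0.16, with no test. Members and gene lists (other p53 targets, p53 regulators, ATF4 targets, dissociation genes) were chosen with earlier results of these data known. All members are reported, and from each list up to 4 genes with the largest log2 difference in a comparison could be named. For Trp53, Mdm2 and Gdf15 the 3 most alike genes are named. Genes and cells outside these rules, such as the genes set beside Gdf15, were chosen after their values were seen. Gene coordinates are from GENCODE M21 (mm10). Alternatives changed the filters, scaling, depth, minimum level, fold, reporter threshold, cluster weights and doubted barcodes.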

Additional observations from a re-analysis of the deposited data

Results flagged for a closer look

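Gdf15 went opposite ways in 2 myeloid populations: its log2 difference, Tom positive minus Tom negative, was 0.95 in macrophage-like cells and -4.34 in neutrophil-like cells, 5.29 apart. The difference between the populations was not tested, since there is 1 library a group. The macrophage-like levels were 22.5 CPM in Tom positive, against 11.2 CPM in Tom negative cells, and the neutrophil-like levels 6.76 and 156.3 CPM. In Tom negative neutrophil-like cells 3 cells held 77.1% of the Gdf15 UMIs.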

How the results depend on the processing

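No paired analysis was possible because each group is 1 library. Of 163 counts of members past 1.5-fold under the alternatives, 130 stayed within 1.5 times the main count and 33 moved, and of 1705 single values, correlations included, 1536 stayed, 166 moved and 3 reversed. In reporter-high against reporter-low fibroblast-like cells Mdm2, Ccng1 and Bax stayed above 0 under all 13 alternatives, Mdm2 between 0.33 and 0.90, Ccng1 between 0.23 and 0.77 and Bax between 0.14 and 0.30 on the log2 scale.

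Counts of members past 1.5-fold moved as follows. The share of all genes past 1.5-fold was computed in the main setting only, so the counts below cannot be read as results about the members. In that setting it was 43.8% in neutrophil-like cells by the sort and 23.2% in endothelial-like cells by the reporter. Thinning to 2000 UMIs gave 1 over all kept cells, 4 in macrophage-like cells, 1 in cluster 0, 5 in neutrophil-like cells, 3 in endothelial-like cells, 1 in cluster 5 and 2 in cluster 7, and by reporter level 2 in fibroblast-like, 3 in macrophage-like and 6 in endothelial-like cells. The last of these compares only 21 thinned reporter-high cells and rests on few counts of each gene. With no minimum level the sort gave 1 in fibroblast-like cells, 2 in cluster 0 and 2 in endothelial-like cells, and the reporter level 1 in fibroblast-like and 3 in endothelial-like cells. A minimum of 50 CPM gave 0 in macrophage-like cells by the sort and 0 in endothelial-like cells by the reporter. Using reporter-high Tom positive cells only gave 2 over all kept cells (Mdm2 and Phlda3), 7 in neutrophil-like and 2 in endothelial-like cells. Weighting clusters equally gave 1 over all kept cells and 0 in macrophage-like cells by the sort, and 1 in macrophage-like cells by the reporter. In that last case only 1 cluster had at least 20 cells on each side, so it compares cells of that cluster alone. The mean over cells gave 1 over all kept cells by the sort, and 1 in macrophage-like and 4 in endothelial-like cells by the reporter. Limiting reporter-low cells to those with no tdTomato UMI gave 2 in fibroblast-like cells (Mdm2 and Ccng1) and 4 in endothelial-like cells. Setting reporter-high at 250 CPM gave 1 in macrophage-like and 0 in endothelial-like cells, at 1000 CPM 4 in endothelial-like cells, a 2-fold call 0 and TMM 2 there.

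The reversed result was Ccng1 in reporter-high endothelial-like cells, at 0.75 on the log2 scale, which became -0.077 as a mean over cells, -0.235 after thinning and -0.748 against cells with no tdTomato UMI. Thinning left 21 reporter-high cells, of which 4.76% had a Ccng1 UMI, so the thinned value rests on very few counts. The cause of these moves was not tested. TMM scaling shifted the neutrophil-like comparison by -0.361 on the log2 scale, and Ccng1 and Bbc3 were then at 0.83 and 0.90. Gdf15, Bbc3 and Sesn2 were under 10 CPM in fibroblast-like cells of both libraries, so no call was made there. Leaving out the 3 cells with most Gdf15, or the classes of mostly doubted barcodes, was chosen after seeing the data.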
